A study of Mus musculus with 10 samples.

Results

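Fibroblast growth factors (FGFs) are secreted proteins that signal through tyrosine kinase receptors on the surface of other cells or of the cells that make them. The 10 genes described here are 5 ligand genes (Fgf2, Fgf7, Fgf9, Fgf10 and Fgf18) and 5 receptor genes (Fgfr1, Fgfr2, Fgfr3, Fgfr4 and Fgfrl1) of the mouse, out of 22594 genes in the deposited table. They were taken by name, and the level of a gene was the sum over all its transcripts of TPM, a share of the transcripts in a library corrected for transcript length. All 10 were in the table, and 8 had at least 1 TPM in at least 2 libraries and were tested, as were 13188 genes in all. Fgf9 and Fgfr4 did not pass that filter.

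The libraries were made from mouse cells labelled as post-mortem fibroblasts, the cells that build connective tissue. There were 2 libraries of lung cells at 12 h, 2 of lung cells at 0 h, 3 of ear cells at 12 h and 3 of ear cells at 0 h. The labels give no strain, age, sex, genotype or culture, and name no agent given to any group. The labels do not state whether libraries with different numbers come from different animals. Each p-value below thus measures the spread between these libraries, part of which may be technical. Y-linked transcripts, given below, set library 2 of each tissue at 0 h apart from the other libraries.

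FGF ligands divide into families that prefer different receptors. Fgf7 and Fgf10 are made mainly by mesenchymal cells and bind the form of FGFR2 that epithelial cells carry, and in lung development Fgf10 from the mesenchyme drives the branching of the airway epithelium. Fgf2, Fgf9 and Fgf18 act mainly on the receptor forms that mesenchymal cells carry, all FGFs of this kind bind heparan sulfate, and signalling passes through RAS and the MAP kinases and induces its own inhibitors.

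The cell type label was checked against marker genes. All 12 fibroblast markers reached 1 TPM in each group, and their summed level was 4639.0 to 5673.5 TPM in lung cells at 12 h, 3878.5 to 7267.6 in lung at 0 h, 12618.1 to 15873.1 in ear at 12 h and 12734.1 to 14007.3 in ear at 0 h. The 12 macrophage markers summed to 7477.1 to 17286.3 TPM in lung cells at 12 h and 5395.8 to 7173.1 in lung at 0 h, led by Lyz2, against 28.8 to 56.4 in ear at 12 h and 26 to 49.2 in ear at 0 h. In ear at 0 h, 6 adipocyte markers summed to 2928.8 TPM in library 1 and to at most 216.0 in the others. The Y-linked gene Ddx3y was at 53.3 TPM in library 2 of lung at 0 h and 52.4 TPM in library 2 of ear at 0 h. It was at most 0.758 TPM elsewhere. Eif2s3y, also Y-linked, was at 32.9 and 28.9 TPM in these libraries and at most 0.0877 TPM elsewhere. Y-linked genes mark male cells, so these libraries and the others of 0 h did not come from the same animals. Each library had 12024 to 12337 genes at 1 TPM or more, and TPM keeps no record of depth, which is unknown.

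Of the 4 ligands tested, Fgf10 was higher in lung cells than in ear cells at 0 h and Fgf7 was lower in lung cells at both times, while Fgf2 and Fgf18 passed the test at neither. Of the 4 receptors tested, Fgfr2 and Fgfrl1 were lower in lung cells at both times, and Fgfr1 and Fgfr3 passed at neither. At 0 h, 4 of 8 members passed, 1 higher and 3 lower, against 11.3% of all genes tested (6.11% higher and 5.17% lower). At 12 h, 3 of 8 passed, all lower, against 17.2% of all genes tested (8.07% higher and 9.12% lower). The members, and the gene lists used further below, were chosen with earlier results of these data known. Such counts therefore cannot show an excess over all genes. The median log2 fold change of the members was -0.80 at 0 h and -0.60 at 12 h, beside -0.08 and -0.14 over all genes tested. Over all 4 lung and 6 ear libraries, 1 member tested had all its lung values above its ear values, as had 10.7% of genes, and 3 had all of them below, as had 15.2%. Within 12 h the counts were 2 above and 4 below, against 17% and 30.2% of genes, and within 0 h they were 1 above and 5 below, against 18% and 25.6%. Fewer cells of a type and less RNA per cell cannot be told apart in such bulk libraries.

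**Figure D1:**
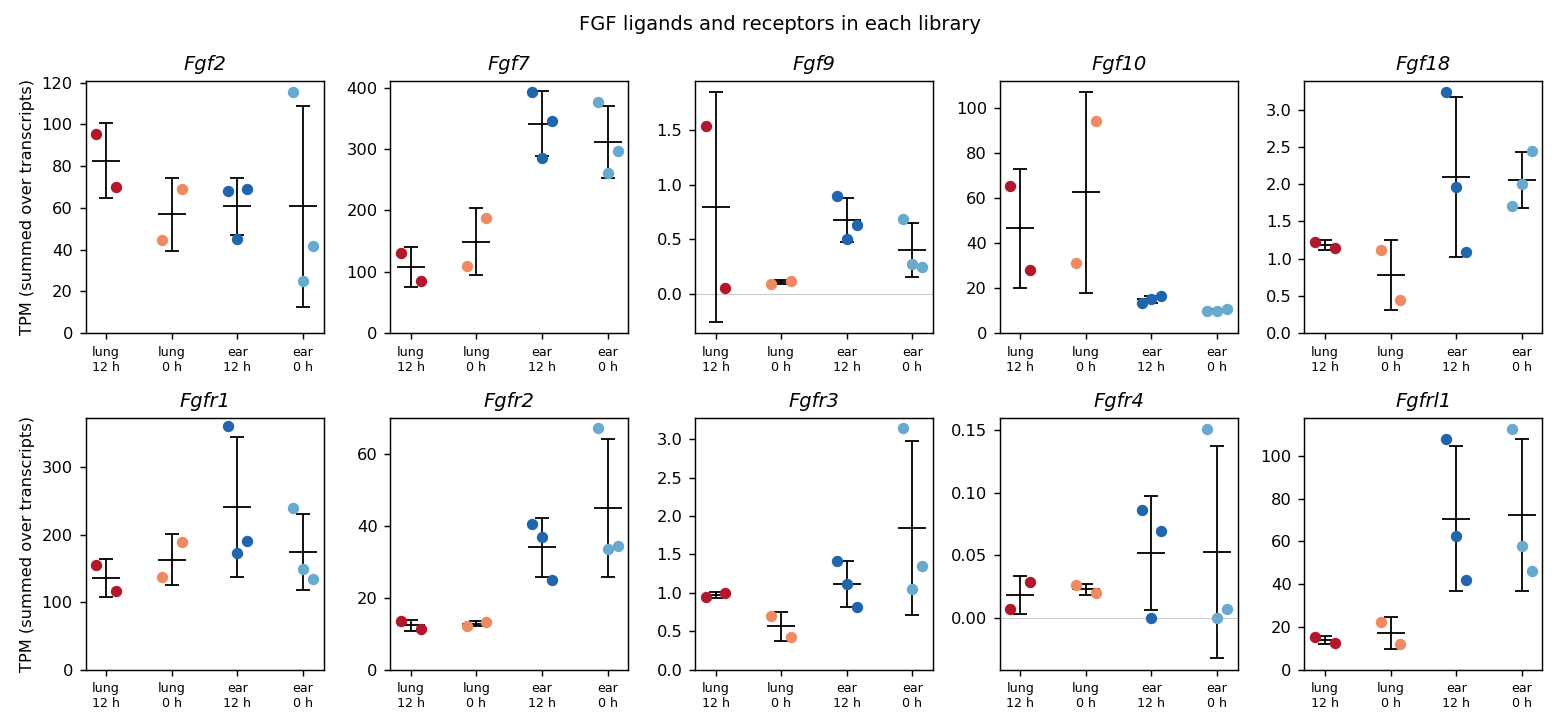
Level of each of the 10 genes in each library (points; vertical axis TPM, linear, scaled for each gene) with the group mean and SD (bars), for lung at 12 h and 0 h (2 libraries each) and ear at 12 h and 0 h (3 libraries each). The lung and ear points of Fgf10, Fgf7, Fgfr2 and Fgfrl1 do not overlap over the 10 libraries, and those of the other genes do.

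Fgf10 (ENSMUSG00000021732.14) lies on chromosome 13, from 118669791 to 118792115 on the plus strand of GRCm38, and 1 of its transcripts was in the table. Its level was 65.2 and 27.9 TPM in lung cells at 12 h, 31 and 94.1 TPM in lung cells at 0 h, 13.3, 15.2 and 16.3 TPM in ear cells at 12 h, and 9.59, 9.81 and 10.7 TPM in ear cells at 0 h. Each lung library lay above each ear library, and the lung libraries of 1 time differed far more from each other than the ear libraries did. At 0 h the mean was 62.6 ± 44.6 TPM in lung and 10.1 ± 0.614 TPM in ear (SD, n = 2 and 3), a log2 fold change of 2.32 (SE 0.446; limma, Benjamini-Hochberg adjusted p = 0.0102). At 12 h it was 46.5 ± 26.4 TPM in lung and 14.9 ± 1.5 TPM in ear (SD, n = 2 and 3), with a log2 fold change of 1.46 that missed the threshold (SE 0.446; limma adjusted p = 0.0527). At both times the outcome of the test depended on single libraries. Without library 2 of lung at 0 h, the value at 0 h was 1.54 (limma adjusted p = 0.0609), and without both libraries with Y-linked transcripts it was 1.52 (limma adjusted p = 0.121). The value at 12 h passed when library 1 or library 2 of lung at 0 h was left out (1.46 each time, limma adjusted p = 0.0176), or library 2 of lung at 12 h (2.06, limma adjusted p = 0.036). It also passed without both libraries with Y-linked transcripts (1.46, limma adjusted p = 0.0329) and with a pseudocount of 0.1 (1.51, limma adjusted p = 0.0479).

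The promoter of Fgf10 is shown because Fgf10 was the member that was higher in lung. The window runs from 250 bases before to 50 bases after the gene start in RefSeq, which lies downstream of the first base of the Ensembl gene, at chr13:118714449-118714748 on the plus strand of GRCm38.p6. Capitals mark the forkhead motif TGTTTAC, which starts 11 bases before the RefSeq start.
Fgf10 promoter: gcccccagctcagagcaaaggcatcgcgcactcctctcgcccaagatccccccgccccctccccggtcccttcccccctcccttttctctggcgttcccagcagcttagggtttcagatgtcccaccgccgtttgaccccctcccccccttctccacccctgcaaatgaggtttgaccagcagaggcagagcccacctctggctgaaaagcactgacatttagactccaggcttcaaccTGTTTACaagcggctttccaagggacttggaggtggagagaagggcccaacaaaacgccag
On either strand, TGTTTAC was in 3.65% of 32851 RefSeq promoters of this length, and of the 9 members with a promoter it was in that of Fgf10 only. The T-box motif GGTGTGA, in 3.98% of promoters, was in none of the 9, and the GC box GGGCGG, in 35.7%, was in those of Fgf2, Fgf10, Fgf18, Fgfr3, Fgfr4 and Fgfrl1. The motifs, which do not overlap in this window, were chosen after the sequence was seen, and binding was not measured here.

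Fgf7, or keratinocyte growth factor, is the ligand closest to Fgf10 in receptor use. It lies on chromosome 2, from 126034658 to 126091185 on the plus strand. Its level was 130.6 and 85.1 TPM in lung cells at 12 h, 110.0 and 187.8 TPM in lung cells at 0 h, 392.7, 286.1 and 345.8 TPM in ear cells at 12 h, and 376.0, 261.0 and 296.6 TPM in ear cells at 0 h. The highest lung library lay below the lowest ear library. At 12 h the mean was 107.9 ± 32.1 TPM in lung and 341.5 ± 53.4 TPM in ear (SD, n = 2 and 3), a log2 fold change of -1.67 (SE 0.285; limma adjusted p = 0.00416). That call held in all 18 alternatives run for it, between -1.98 and -1.37. At 0 h the mean was 148.9 ± 55 TPM in lung and 311.2 ± 58.9 TPM in ear (SD, n = 2 and 3), a log2 fold change of -1.09 (SE 0.285; limma adjusted p = 0.0387), which held in 10 of 18 alternatives. The call at 0 h thus depended on settings that the call at 12 h did not. It lost its call with no filter on low values (limma adjusted p = 0.0681) and with only the groups compared in the fit (limma adjusted p = 0.061). With the replicate number as a block it was -1.12 (limma adjusted p = 0.141), again without a call. It also lost it without library 1 of lung at 0 h (-0.71, limma adjusted p = 0.339), without library 1, 2 or 3 of ear at 0 h (-0.95, -1.21 and -1.12, with limma adjusted p of 0.104, 0.054 and 0.0869), and without library 3 of ear at 12 h (-1.09, limma adjusted p = 0.0638).

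Fgf10 and Fgf7 thus lay in opposite order between the tissues. The ratio of Fgf10 to Fgf7 TPM was 0.499 and 0.327 in lung at 12 h, 0.282 and 0.501 in lung at 0 h, 0.0339, 0.0531 and 0.0471 in ear at 12 h, and 0.0255, 0.0376 and 0.0362 in ear at 0 h. Fgf7 was the more abundant of the pair in every library. The sum of the pair was 195.8 and 113.0 TPM in lung cells at 12 h, 141.1 and 281.9 TPM in lung cells at 0 h, 301.3 to 406.0 TPM in ear cells at 12 h and 270.8 to 385.6 TPM in ear cells at 0 h, so the summed levels of lung and ear overlapped at 0 h.

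**Figure D2:**
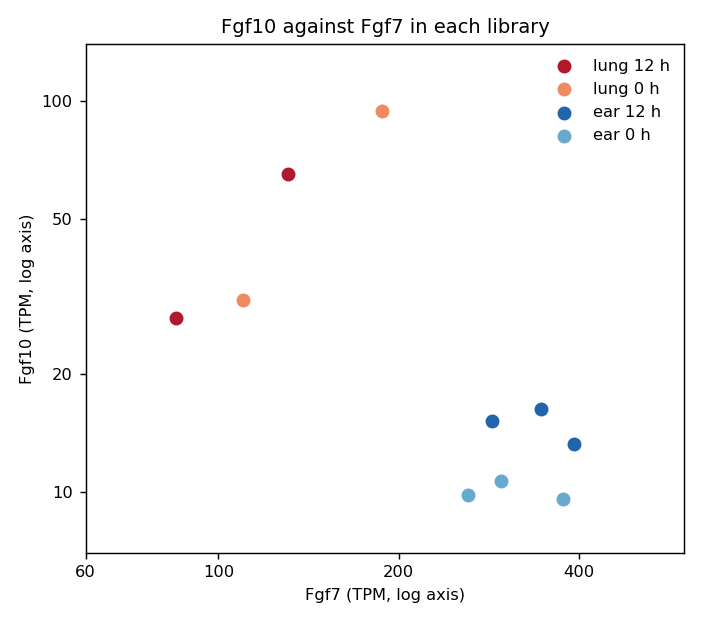
Fgf10 (vertical axis, TPM, log) against Fgf7 (horizontal axis, TPM, log) in each of the 10 libraries, coloured by group. The 4 lung libraries lie at higher Fgf10 and lower Fgf7, and the 6 ear libraries at lower Fgf10 and higher Fgf7.

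Fgf2, or basic FGF, is a broad mitogen of mesenchymal and endothelial cells, on chromosome 3 from 37348346 to 37410108. Its level was 95.5 and 69.8 TPM in lung cells at 12 h, 44.6 and 69.1 TPM in lung cells at 0 h, 68.2, 45.1 and 69 TPM in ear cells at 12 h, and 115.6, 24.8 and 41.6 TPM in ear cells at 0 h. The tissues overlapped at 0 h and, by less than 1 TPM, did not at 12 h, and ear at 0 h held both the highest and the lowest of the 10 values. The log2 fold change was 0.16 at 0 h (SE 0.534; limma adjusted p = 0.898) and 0.45 at 12 h (SE 0.534; limma adjusted p = 0.614).

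Fgf18, a ligand of lung and cartilage development, and Fgf9, a ligand of lung mesothelium and epithelium, were near the detection filter. Fgf18 was at 1.23 and 1.14 TPM in lung cells at 12 h, 1.11 and 0.445 TPM in lung cells at 0 h, 3.24, 1.96 and 1.09 TPM in ear cells at 12 h, and 1.71, 2 and 2.45 TPM in ear cells at 0 h. Its libraries overlapped at 12 h and did not at 0 h, where the log2 fold change was -0.80 (SE 0.309; limma adjusted p = 0.144). At 12 h it was -0.44 (SE 0.309; limma adjusted p = 0.365). Fgf9 was at 1.54 and 0.0544 TPM in lung cells at 12 h, 0.093 and 0.12 TPM in lung cells at 0 h, 0.502 to 0.898 TPM in ear cells at 12 h and 0.246 to 0.69 TPM in ear cells at 0 h. Only library 1 of lung at 12 h reached 1 TPM of Fgf9.

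By mean level at 0 h, the ligands in lung were ordered Fgf7, Fgf10, Fgf2, Fgf18 and Fgf9, and in ear Fgf7, Fgf2, Fgf10, Fgf18 and Fgf9. The lung libraries of Fgf10 and Fgf2 overlapped, while in ear the highest Fgf10 value of either time, 16.3 TPM, lay below the lowest Fgf2 value, 24.8 TPM.

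Fgfr2 is the receptor of Fgf7 and Fgf10 in one splice form and of other FGFs in the other. The gene (ENSMUSG00000030849.18) lies on chromosome 7, from 130162451 to 133123350 on the minus strand. Its level was 13.5 and 11.3 TPM in lung cells at 12 h, 12.3 and 13.4 TPM in lung cells at 0 h, 40.5, 36.8 and 24.9 TPM in ear cells at 12 h, and 67.3, 33.7 and 34.4 TPM in ear cells at 0 h. The lung libraries differed little, each lay below each ear library, and library 1 of ear at 0 h stood highest. At 0 h the mean was 12.9 ± 0.777 TPM in lung and 45.2 ± 19.2 TPM in ear (SD, n = 2 and 3), a log2 fold change of -1.66 (SE 0.316; limma adjusted p = 0.00992). At 12 h it was 12.4 ± 1.54 TPM in lung and 34.1 ± 8.16 TPM in ear (SD, n = 2 and 3), a log2 fold change of -1.37 (SE 0.316; limma adjusted p = 0.0174). Both calls for Fgfr2 depended on single libraries. The call at 0 h was lost without library 1 of lung at 0 h (-1.60, limma adjusted p = 0.0854), without library 2 (-1.72, limma adjusted p = 0.0512), and without both libraries with Y-linked transcripts (-1.89, limma adjusted p = 0.065). The call at 12 h was lost without library 2 of lung at 12 h (-1.25, limma adjusted p = 0.0999) or library 1 of ear at 12 h (-1.23, limma adjusted p = 0.0562).

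The splice forms of Fgfr2 differ in a pair of mutually exclusive exons that encode part of the third immunoglobulin domain, the part that sets which ligands bind. Exon IIIb gives the form that binds Fgf7 and Fgf10, and exon IIIc the form of mesenchymal cells. Exon IIIb, with 148 bases, is at chr7:130199758-130199905 on the minus strand of GRCm38.

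Transcripts with exon IIIc held most of the Fgfr2 TPM that could be given to either exon. Exon IIIb transcripts were at 0.802 and 0.539 TPM in lung cells at 12 h, 0.513 and 0.816 TPM in lung cells at 0 h, 2.39, 2.45 and 1.62 TPM in ear cells at 12 h, and 4.12, 2.4 and 2.29 TPM in ear cells at 0 h. Exon IIIc transcripts were at 5.56 and 5.59 TPM in lung cells at 12 h, 6.48 and 6.28 TPM in lung cells at 0 h, 19, 16.4 and 10.9 TPM in ear cells at 12 h, and 32.5, 14.2 and 15.8 TPM in ear cells at 0 h. Both forms were lowest in the lung libraries, with no overlap with ear. The share of IIIb in the sum of both forms was 12.6% and 8.8% in lung at 12 h, 7.34% and 11.5% in lung at 0 h, 11.2%, 13% and 13% in ear at 12 h, and 11.2%, 14.4% and 12.7% in ear at 0 h, and these shares overlapped between the tissues. A further 5.15 to 7.1 TPM in lung and 12.4 to 30.7 TPM in ear came from Fgfr2 transcripts with neither exon. Of 10 IIIb transcripts in the table, 3 were above 0 in any library, and one of these, Fgfr2-208, has an incomplete annotated coding sequence. Fgfr2-208 held 99.9% to 100% of the IIIb TPM in 9 libraries and 55.4% in library 2 of lung at 12 h, where the incomplete Fgfr2-210, at 0.24 TPM, held the rest. Fgfr2-208 held 2.65% to 6.09% of Fgfr2 TPM in lung and 5.9% to 7.12% in ear. Over complete coding sequences alone, exon IIIb was listed at 0 in 9 of 10 libraries and was 0.0158% of the sum of both forms in library 1 of lung at 12 h, while exon IIIc was at 5.41 and 5.59 TPM in lung cells at 12 h, 6.48 and 6.28 TPM in lung cells at 0 h, 19, 16 and 10.4 TPM in ear cells at 12 h, and 31.5, 13.7 and 15.5 TPM in ear cells at 0 h. The IIIb shares above therefore rest on transcripts with an incomplete coding sequence. How the estimation divided reads between these transcripts was not tested.

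Esrp1, a splicing factor of epithelial cells that favours exon IIIb, was under 1 TPM in every library. Its relative Esrp2 was at 3.92 and 1.97 TPM in lung cells at 12 h, 1.78 and 2.32 TPM in lung cells at 0 h, 0.401 to 0.552 TPM in ear cells at 12 h and 0.278 to 0.541 TPM in ear cells at 0 h. The 12 epithelial markers, these included, summed to 15.6 to 33.5 TPM in lung cells at 12 h, 23 to 62.9 in lung at 0 h, 8.82 to 13.5 in ear at 12 h and 8.33 to 12.3 in ear at 0 h. Their part in the exon shares was not tested.

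**Figure D3:**
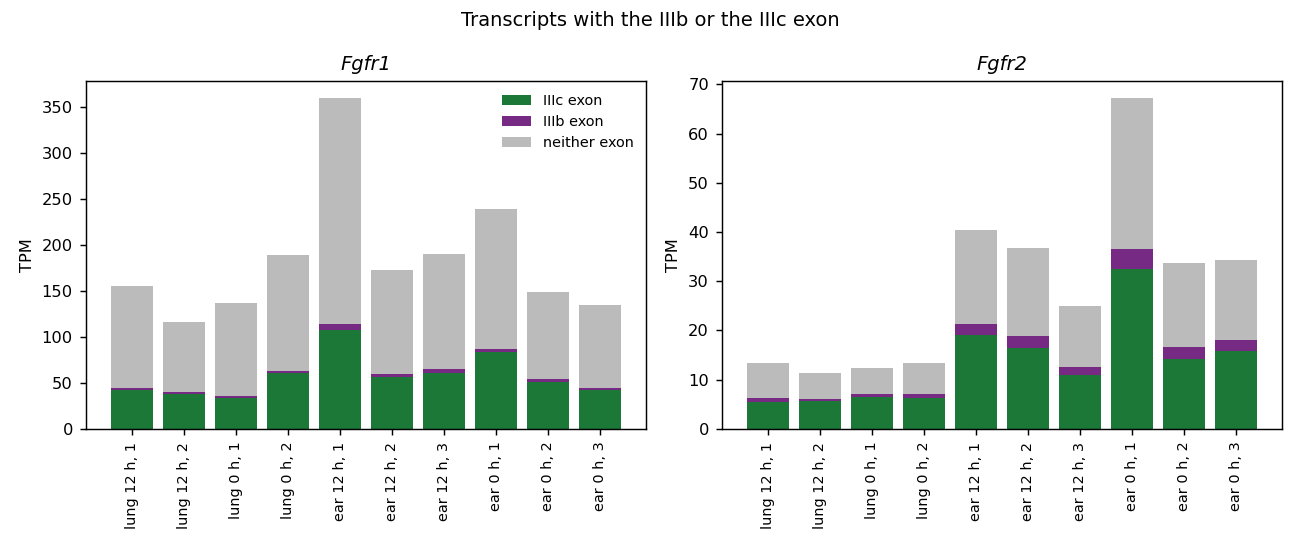
TPM of Fgfr1 (left) and Fgfr2 (right) in each library, stacked by transcripts with exon IIIc, with exon IIIb and with neither (vertical axes in TPM from 0, scaled for each gene). Exon IIIb is the smallest share of each bar, and the Fgfr2 bars of the 4 lung libraries are lower than those of the 6 ear libraries.

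Fgfr1, the main receptor of mesenchymal cells, was the most abundant of the 4 kinase receptors in every library, with 77.2% to 93.2% of their summed TPM. The gene lies on chromosome 8, from 25513654 to 25575718. Its level was 155.2 and 116.2 TPM in lung cells at 12 h, 136.6 and 189.6 TPM in lung cells at 0 h, 360.3, 172.8 and 190.0 TPM in ear cells at 12 h, and 239.3, 148.9 and 134.4 TPM in ear cells at 0 h. The tissues overlapped at 0 h and did not at 12 h, where library 1 of ear stood apart. The log2 fold change was -0.07 at 0 h (SE 0.358; limma adjusted p = 0.942) and -0.76 at 12 h (SE 0.358; limma adjusted p = 0.184).

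A single short transcript, Fgfr1-212, with 152 bases of incomplete coding sequence, held 59.7% to 68.9% of Fgfr1 TPM in lung and 60.1% to 65.6% in ear. Summed over transcripts with a complete coding sequence only, Fgfr1 was at 48.4 and 44.8 TPM in lung cells at 12 h, 37.9 and 69.9 TPM in lung cells at 0 h, 133.4, 67.4 and 72.5 TPM in ear cells at 12 h, and 100.9, 62 and 50 TPM in ear cells at 0 h. On that scale Fgfr1 held 57.3% to 82.9% of the summed TPM of the kinase receptors and was still the most abundant of them in each library. Its level was 2.88 to 4.98 times that of Fgfr2 in lung and 1.4 to 3 times in ear, ranges that overlapped. Exon IIIb held 3.54% to 6.61% of the Fgfr1 TPM that could be given to exon IIIb or IIIc, over all 10 libraries.

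Fgfr3 and Fgfr4, receptors known best from cartilage and from liver and muscle, were low. Fgfr3 was at 0.947 and 0.999 TPM in lung cells at 12 h, 0.697 and 0.431 TPM in lung cells at 0 h, 1.41, 1.12 and 0.818 TPM in ear cells at 12 h, and 3.14, 1.05 and 1.35 TPM in ear cells at 0 h. Library 1 of ear at 0 h stood above the rest, and the tissues overlapped at 12 h. The log2 fold change was -0.80 at 0 h (SE 0.305; limma adjusted p = 0.14) and -0.09 at 12 h (SE 0.305; limma adjusted p = 0.866). Fgfr4 was at most 0.0286 TPM in lung and at most 0.151 TPM in ear, and was listed at 0 in library 2 of ear at either time.

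Fgfrl1 encodes a receptor that binds FGFs and heparin but lacks the kinase domain. It lies on chromosome 5, from 108692382 to 108706924. Its level was 15.3 and 12.4 TPM in lung cells at 12 h, 22.5 and 12 TPM in lung cells at 0 h, 107.9, 62.3 and 41.7 TPM in ear cells at 12 h, and 112.6, 58 and 46.3 TPM in ear cells at 0 h. The lung libraries lay below the ear libraries with no overlap, and library 1 was the highest of ear at both times. At 0 h the mean was 17.2 ± 7.44 TPM in lung and 72.3 ± 35.4 TPM in ear (SD, n = 2 and 3), a log2 fold change of -1.97 (SE 0.463; limma adjusted p = 0.0251). At 12 h it was 13.9 ± 2.04 TPM in lung and 70.7 ± 33.9 TPM in ear (SD, n = 2 and 3), a log2 fold change of -2.17 (SE 0.463; limma adjusted p = 0.0122). For Fgfrl1, too, single libraries decided whether the test was passed. The call at 0 h was lost with no filter on low values (-1.97, limma adjusted p = 0.0567) and without library 1 or 2 of lung at 0 h (-2.39 and -1.54, with limma adjusted p of 0.0614 and 0.168). It was also lost without library 1 of ear at 0 h (-1.60, limma adjusted p = 0.0626) and without both libraries with Y-linked transcripts (-1.64, limma adjusted p = 0.214). The call at 12 h was lost without library 2 of lung at 12 h (-2.03, limma adjusted p = 0.0789).

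The incomplete transcript Fgfrl1-204, with 121 coding bases, held 50.4% of Fgfrl1 TPM in library 1 of lung at 0 h. Over complete coding sequences alone, Fgfrl1 was at 16.8 and 12.6 TPM in lung cells at 12 h, 12.3 and 13.4 TPM in lung cells at 0 h, 47.3 to 105.2 TPM in ear cells at 12 h and 52.1 to 130.2 TPM in ear cells at 0 h. On this scale the lung libraries at 0 h were close to each other and again lay below ear.

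**Figure D4:**
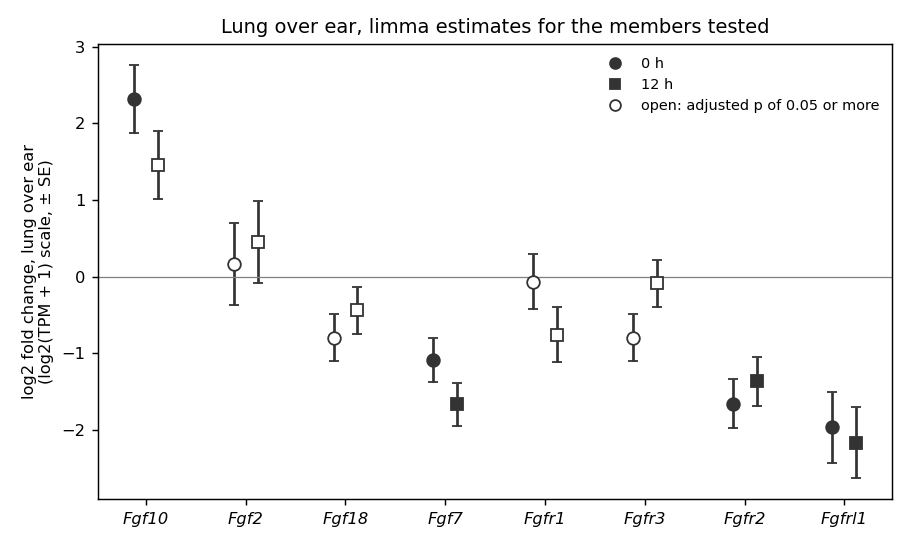
Log2 fold change of lung over ear on the log2(TPM + 1) scale, with SE, for the 8 members tested at 0 h (circles) and at 12 h (squares); filled symbols have a limma adjusted p under 0.05. Fgf10 lies highest, at 2.32 and 1.46, and Fgfrl1 lowest, at -1.97 and -2.17.

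Markers of other cell types also differed between lung and ear, though not in every list. Of 12 macrophage markers, 10 were higher in lung at 0 h and 12 at 12 h, and of 7 smooth muscle markers tested out of 8, 3 were higher and 1 lower at 0 h and 5 were higher at 12 h. The smooth muscle markers, led by Acta2, which activated fibroblasts also express, summed to 8182.8 to 15353.6 TPM in lung cells at 12 h, 9109.5 to 9595.5 in lung at 0 h, 204.8 to 2658.4 in ear at 12 h and 441.0 to 2623.4 in ear at 0 h. Of 12 fibroblast markers, 4 were lower in lung at 0 h and 6 at 12 h. Of 7 chondrocyte markers tested out of 9, 3 were lower in lung at each time, with sums of 1.94 to 9.23 TPM in lung cells at 12 h, 1.79 to 4.67 in lung at 0 h, 28.1 to 103.5 in ear at 12 h and 41.4 to 203.9 in ear at 0 h. Library 1 of ear at 0 h, which had the highest adipocyte and chondrocyte sums, also had the highest Fgf2, Fgfr2, Fgfr3, Fgfr4 and Fgfrl1 levels of the 10 libraries. Within lung, library 2 at 12 h had the highest macrophage sum, 17286.3 TPM, and the lowest Fgf10 level, 27.9 TPM. Library 2 of lung at 0 h had the lowest macrophage sum of the lung libraries, 5395.8 TPM, and the highest Fgf10 level, 94.1 TPM. The lung libraries numbered 1 lay the other way. The macrophage sum was 7477.1 TPM at 12 h and 7173.1 TPM at 0 h, and Fgf10 was at 65.2 and 31 TPM. Fgf7 also had its lowest and highest lung levels, 85.1 and 187.8 TPM, in library 2 at 12 h and library 2 at 0 h. Of 6 skeletal muscle markers tested out of 7, 0 passed at 0 h and 6 were lower in lung at 12 h, with a median log2 fold change of -2.63. They summed to 4.31 to 7.28 TPM in lung cells at 12 h, 7.3 to 13.7 in lung at 0 h, 52.6 to 220.7 in ear at 12 h and 9.9 to 16.8 in ear at 0 h. Between the times in ear, 0 of these 6 passed and 6 had an unadjusted p under 0.05, with a median of 2.13. Of 8 epithelial markers tested out of 12, 6 were higher and 1 lower in lung at 0 h, and 4 were higher and 1 lower at 12 h. Of 4 alveolar markers tested out of 8, 2 were higher at 0 h and 3 at 12 h. The 8, led by Hopx, summed to 14.8 to 29.4 TPM in lung cells at 12 h, 24.1 to 27.8 in lung at 0 h, 5.17 to 7.45 in ear at 12 h and 9.05 to 16.1 in ear at 0 h. Sftpc was at 3.22 to 5.67 TPM in lung and at most 0.138 TPM in ear. Scgb1a1 was at 1.04 to 2.73 TPM in lung and at most 0.888 TPM in ear. Sftpb, Sftpa1, Nkx2-1 and Foxj1 were under 1 TPM in every library. Hapln1 and Col9a1 were at 0 in lung at 12 h and Matn1 at 0 in both groups at 0 h. Among 6 adipocyte markers, 0 passed at either time, with median log2 fold changes of -2.15 at 0 h and -1.88 at 12 h. The 5 endothelial markers tested out of 8 had 1 lower in lung at 0 h, and 1 higher and 2 lower at 12 h. The 3 mesothelial markers tested out of 6 had 1 higher and 1 lower at each time. Melanocyte and Schwann markers, with 2 tested out of 6, had 0 passing at either time. The part of these markers in the FGF differences was not tested.

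None of the 8 members passed the test between the times. For 12 h against 0 h in ear, 0 of 8 members passed, as did 0% of all genes tested, and the members' log2 fold changes ran from -0.37 for Fgfr3 to 0.53 for Fgf10 (limma, adjusted p = 1 for each). In lung, 0 of 8 passed, against 0.00758% of genes, which is the chemokine gene Ccl12 alone, and the members ran from -0.44 for Fgf7 to 0.55 for Fgf2 (limma, adjusted p = 1 for each). For the interaction, which asks whether the time difference of lung differs from that of ear, 0 of 8 members and 0% of genes passed, with member values from -0.86 for Fgf10 to 0.71 for Fgfr3. At an unadjusted p under 0.05, 0 of 8 members were found in any of these 3 contrasts. Of the 13188 genes tested 219 were found in ear, 526 in lung and 387 in the interaction. Each is a smaller share than the 0.05 that this threshold would find on average if no gene changed. With the replicate number as a block, 0 of 8 members and 330 genes, 2.5% of those tested, were found in ear at an unadjusted p under 0.05. The SE of a member lay between 0.255 and 0.756 in these contrasts, so a failure to pass does not show that the levels were equal. In ear, each library at 12 h had more Fgf10 than each library at 0 h, 13.3 to 16.3 TPM against 9.59 to 10.7 TPM, with a log2 fold change of 0.53 (SE 0.399; limma unadjusted p = 0.219). The share of all genes whose ear libraries were ordered in this way was not counted, so whether the order sets Fgf10 apart is not known. Between ear libraries of equal number, Fgf7, Fgf10 and Fgfr1 were higher at 12 h in 3 of 3 pairs, as were 17.3% of all genes tested. In all 3 pairs, 0 of 8 members were lower, as were 7.32% of genes. The libraries numbered 2 differ in Y-linked Ddx3y, with 52.4 TPM at 0 h and 0.0168 TPM at 12 h. That pair is thus not from the same animal, a limit that also holds for the fit with the block. In the fit with the block the log2 fold change in ear was 0.43 for Fgfr1 (SE 0.2; limma unadjusted p = 0.0751, adjusted p = 1), 0.14 for Fgf7 (SE 0.261; limma unadjusted p = 0.616) and 0.53 for Fgf10 (SE 0.486; limma unadjusted p = 0.322).

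The other genes of the pathway were taken from lists of 75 genes, of which 60 passed the filter. At 0 h, 3 of the 60 were higher in lung and 6 lower, beside 6.11% higher and 5.17% lower of all genes tested, with a median log2 fold change of 0.09 beside -0.08. At 12 h, 2 were higher and 7 lower, beside 8.07% and 9.12% of all genes, with a median of -0.04 beside -0.14. The 9 called at each time were a share near that of all genes, 11.3% at 0 h and 17.2% at 12 h. With upper-quartile scaling the counts were 8 higher and 6 lower at 0 h and 7 higher and 7 lower at 12 h. The time contrasts and the interaction called 0 of the 60.

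Co-receptors and extracellular modulators held most of the genes that were lower in lung, 4 of 13 tested at 0 h and 5 at 12 h, where 5.17% and 9.12% of all genes were lower. At either time 0 of them were higher, and 1, Sdc3, was higher with upper-quartile scaling. Flrt3, a membrane protein that interacts with FGF receptors, was at 0.608 and 1.25 TPM in lung cells at 12 h, 0.683 and 1.08 TPM in lung cells at 0 h, 9.84, 10.8 and 10.6 TPM in ear cells at 12 h, and 9.95, 9.7 and 11 TPM in ear cells at 0 h. The ear libraries of Flrt3 were nearly alike and lay far above those of lung. Its log2 fold change was -2.58 at both times (limma adjusted p = 8.79e-05 at 0 h and 6.69e-05 at 12 h), and no alternative removed the call. Fgfbp1, a secreted carrier that frees FGFs from the matrix, was at 0.0641 to 0.559 TPM in lung and 4.2 to 21.9 TPM in ear, with log2 fold changes of -3.16 at 0 h and -3.32 at 12 h (limma adjusted p = 0.00772 and 0.00453). Its call at 0 h was lost without library 2 of lung at 0 h (-2.89, limma adjusted p = 0.0622) and without both libraries with Y-linked transcripts (-2.39, limma adjusted p = 0.0967).

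The heparan sulfate proteoglycans present FGFs to their receptors. Sdc4, or syndecan 4, was at 201.5 to 323.3 TPM in lung and 619.5 to 1005.8 TPM in ear, with log2 fold changes of -1.47 at 0 h and -1.68 at 12 h (limma adjusted p = 0.00705 and 0.0026). Gpc6, a glypican, was at 1.9 to 4.63 TPM in lung and 7.41 to 15.8 TPM in ear (-1.12 and -1.40, limma adjusted p = 0.0386 and 0.0112). Hspg2, or perlecan, passed at 12 h only, at 19.8 and 27.2 TPM in lung and 36.9 to 52.9 TPM in ear (-0.83, limma adjusted p = 0.0404). The lung and ear libraries of these 3 proteoglycan genes did not overlap. Sdc3, or syndecan 3, lay the other way, at 37.4 and 81.6 TPM in lung cells at 12 h, 40.8 and 45.6 TPM in lung cells at 0 h, 30.2, 25.7 and 24.7 TPM in ear cells at 12 h, and 26.1, 22.8 and 16.5 TPM in ear cells at 0 h. Each lung library of Sdc3 was above each ear library, but its log2 fold changes of 0.98 at 0 h and 1.02 at 12 h missed the threshold (SE 0.311 each; limma adjusted p = 0.0792 and 0.0523). They passed with upper-quartile scaling (1.03 and 1.09, limma adjusted p = 0.0305 and 0.019). The value at 0 h also passed with only the groups compared (limma adjusted p = 0.0465) and without library 1 or 2 of lung at 12 h (limma adjusted p = 0.0181 and 0.0182), and that at 12 h without library 1 of lung at 12 h (1.57, limma adjusted p = 0.00599). Of 10 heparan sulfate enzymes, Sulf2, which removes sulfate groups from the chains, was lower in lung, at 10.3 to 17.7 TPM in lung and 31 to 54.2 TPM in ear (-1.40 and -1.33, limma adjusted p = 0.0175 and 0.0166). With the replicate number as a block the calls of Sdc4 (-1.42), Gpc6 (-1.27) and Sulf2 (-1.53) at 0 h and of Hspg2 (-0.90) and Sulf2 (-1.39) at 12 h were lost, with limma adjusted p of 0.0502 to 0.0811. Most of these calls also depended on single libraries. The calls of Sdc4 and Sulf2 at 0 h were lost without library 1 of lung at 0 h (-1.15 with limma adjusted p = 0.0837 and -1.06 with limma adjusted p = 0.177). Those of Gpc6 and Sulf2 at 12 h were lost without library 1 of lung at 12 h (-1.06 with limma adjusted p = 0.068 and -1.01 with limma adjusted p = 0.0962). The call of Gpc6 at 0 h was lost without library 1 or 2 of lung at 0 h (-1.09 and -1.15), library 1 or 2 of ear at 0 h (-0.88 and -1.22) or any library of ear at 12 h (-1.12 each), with limma adjusted p of 0.0501 to 0.211. The call of Hspg2 was lost without library 1 or 2 of lung at 12 h (-0.61 and -1.05), any library of ear at 12 h (-0.92, -0.67 and -0.90), or a library of lung at 0 h or library 2 or 3 of ear at 0 h (-0.83 each), with limma adjusted p of 0.0524 to 0.181.

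Feedback inhibitors and target factors held all the pathway genes that were higher in lung, 3 of 14 tested at 0 h and 2 at 12 h, with 0 lower. Dusp4, a phosphatase of MAP kinases, was at 17.5 and 59.7 TPM in lung cells at 12 h, 42.4 and 22.9 TPM in lung cells at 0 h, 2.94, 3.6 and 2.45 TPM in ear cells at 12 h, and 3.42, 2.64 and 1.53 TPM in ear cells at 0 h. All lung libraries of Dusp4 lay above all ear libraries, and no alternative removed its calls (log2 fold changes 3.23 at 0 h and 3.08 at 12 h, limma adjusted p = 0.0029 and 0.00257). Dusp6, a phosphatase that FGF signalling induces, was at 29.1 to 72.3 TPM in lung and 16.6 to 22 TPM in ear. It passed at 0 h (1.51, limma adjusted p = 0.0148) and, at 12 h, with upper-quartile scaling (1.09, limma adjusted p = 0.0407). Spry4, a sprouty inhibitor of the pathway, was at 5.32 to 9.92 TPM in lung and 1.53 to 4.05 TPM in ear. It passed at 0 h (1.57, limma adjusted p = 0.00772) and, at 12 h, with upper-quartile scaling (0.90, limma adjusted p = 0.0369). The lung libraries of Dusp6 and Spry4 lay above their ear libraries at both times. Cbl, a ubiquitin ligase of activated receptors, passed at 12 h, at 8.14 and 13.8 TPM in lung and 4.07 to 5.56 TPM in ear (1.03, limma adjusted p = 0.0251). These genes answer to many receptors besides those of FGFs.

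The calls of Dusp6 and Spry4 at 0 h were lost without library 1 of lung at 0 h (1.13 with limma adjusted p = 0.156 and 1.38 with limma adjusted p = 0.0891) and without both libraries with Y-linked transcripts (1.92 with limma adjusted p = 0.0504 and 1.76 with limma adjusted p = 0.0695). With the replicate number as a block, Dusp6 and Spry4 at 0 h (1.57 and 1.40) and Cbl at 12 h (1.01) did not pass either (limma adjusted p = 0.0662, 0.0592 and 0.092). The call of Cbl was lost without library 2 of lung at 12 h (0.68, limma adjusted p = 0.162), without library 1 or 3 of ear at 12 h (0.94 and 1.01, with limma adjusted p of 0.0748 and 0.0707) and over complete coding sequences alone (0.60, limma adjusted p = 0.175). At 12 h, Dusp6 passed without library 1 of lung at 12 h (1.53, limma adjusted p = 0.0119) and without library 1 or 2 of lung at 0 h (1.02 each, limma adjusted p = 0.0475 and 0.0473).

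Of the 18 signal transducers, which link the receptors to the MAP kinases, 0 passed at either time, with a median log2 fold change of 0.15 at 0 h and 0.16 at 12 h. At an unadjusted p under 0.05, 3 were found at 0 h and 4 at 12 h, and with upper-quartile scaling Frs2 (0.76) passed at 0 h, Grb2 (0.63) at 12 h and Map2k1 at both times (0.86 at 0 h and 0.76 at 12 h). Of the 13 other secreted ligands, 3 were tested and 0 passed, and of the 4 homologous factors, which stay in the cell and bind sodium channels, 2 were tested. Fgf13, one of them, was at 0.365 to 1.05 TPM in lung and 1.9 to 4.39 TPM in ear (-1.14 at 0 h and -1.22 at 12 h, limma adjusted p = 0.0415 and 0.0236). Its call at 0 h was lost without library 1 or 2 of lung at 0 h (-1.38 and -0.90), library 1 or 3 of ear at 0 h (-0.85 and -1.28) or any library of ear at 12 h (-1.14 each), with limma adjusted p of 0.0547 to 0.223. Its call at 12 h was lost without library 1 or 2 of lung at 12 h (-1.17 and -1.27) or library 1 or 2 of ear at 12 h (-1.26 and -1.11), with limma adjusted p of 0.0537 to 0.0831. With the replicate number as a block Fgf13 did not pass (-1.28 at 0 h and -1.29 at 12 h, limma adjusted p = 0.0767 and 0.0572), and over complete coding sequences alone it was -0.70 at 0 h (limma adjusted p = 0.175).

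**Figure D5:**
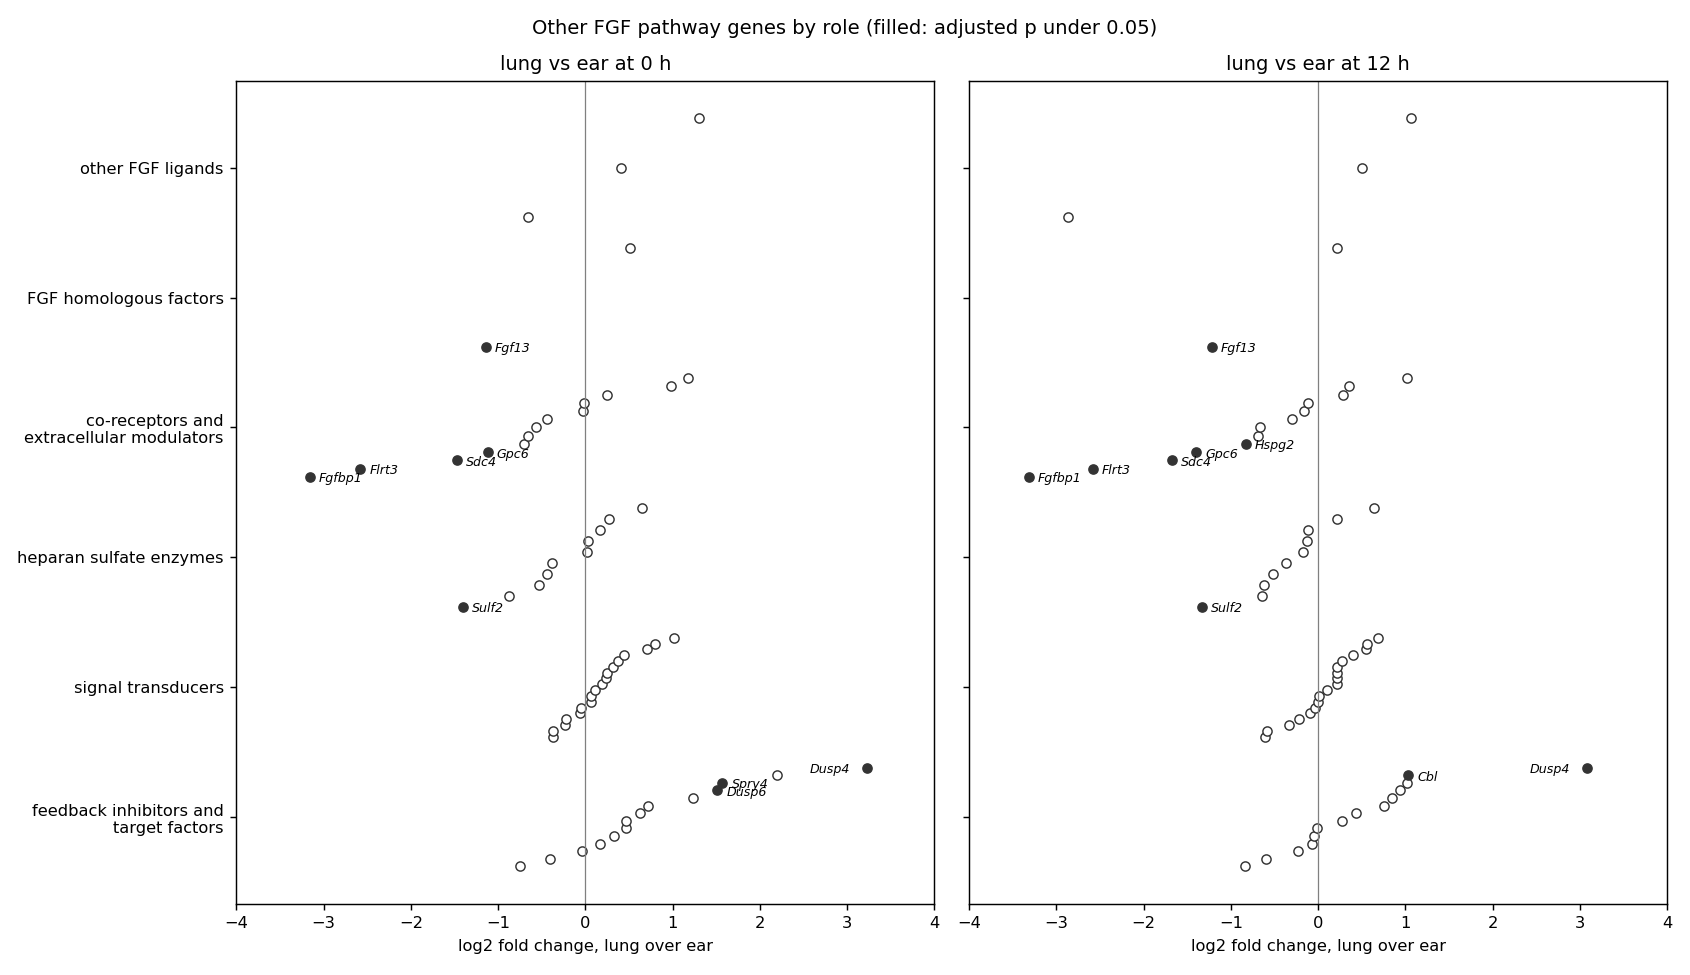
Log2 fold change of lung over ear (horizontal axis) of the 60 other FGF pathway genes tested, grouped by role, at 0 h (left) and 12 h (right); filled points have a limma adjusted p under 0.05 and are named. The filled points lie to the left among co-receptors and modulators and to the right among feedback inhibitors.

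Fgf10 and Fgfrl1 had the largest absolute log2 fold changes of the members at 0 h. For each, all genes tested were ranked by the root mean square difference of log2(TPM + 1), centred on the gene mean, over the 10 libraries. The added 1 shrinks differences of genes near 0 TPM, so a likeness on this scale does not mean an equal fold change. The genes most like Fgf10 were Hsd3b1 (0.245), Cdh18 (0.286) and Lrrn2 (0.287), beside a median of 1.14 over all genes. Hsd3b1 was at 0.903 to 5.35 TPM in lung and 0 to 0.0365 TPM in ear, Cdh18 at 1.16 to 4.53 TPM in lung and 0.0344 to 0.0961 TPM in ear, and Lrrn2 at 2.28 to 7.24 TPM in lung and 0.0462 to 0.453 TPM in ear. All 3 were far less abundant than Fgf10. The genes most like Fgfrl1 were Osr2 (0.253), Fam198a (0.3) and Cdh13 (0.306), beside a median of 1.1. Osr2 was listed at 0 in every lung library and was at 1.82 to 6.11 TPM in ear, Fam198a was at 0.0558 to 0.127 TPM in lung and 1.33 to 5.11 TPM in ear, and Cdh13 at 0.562 to 0.87 TPM in lung and 5.41 to 12.6 TPM in ear.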

How the data were processed

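RNA was extracted with Qiagen AllPrep and sequenced as Illumina libraries, per the labels' protocols. The authors deposited TPM per transcript, from kallisto 0.44.1 and build GRCm38, per the submitters' processing notes. The transcript set of the index is not given in the sources used here. Of 61440 transcripts, 60503 matched GENCODE M21 by Ensembl ID, and the 937 others (0.508% to 0.59% of a library's TPM) were left out. Among transcripts that reached 1 TPM in a library, of 5348 pairs of a gene with the same coding sequence and other exons, 5331 had equal values in every library, against 80 of 33678 pairs with different coding sequences, so TPM is taken here as per coding length. Transcripts with an incomplete coding sequence held 8.63% to 13.9% of TPM.

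Gene sums were analysed as log2(TPM + 1) in limma 3.58.1 (R 4.3.3, eBayes with trend), with 1 mean per group, all 10 libraries, 6 residual and 3.23 prior degrees of freedom, two-sided tests and Benjamini-Hochberg adjustment over 13188 genes (threshold 0.05). The log2(TPM + 1) scale understates changes of low genes. The fit was tested on simulated data. Alternatives were a pseudocount of 0.1, no filter, a filter of 5 TPM, upper-quartile scaling, only the groups compared, the replicate number as a block, and each library left out. Chosen after seeing the data were complete coding sequences only, both libraries with Y-linked transcripts left out, and crossed lung numbers. In ear, libraries of equal number deviated together between the times (correlations 0.4533, 0.3196 and 0.3768). The rule that every correlation exceed 0.1 therefore pairs them. Library 2 held Y-linked transcripts at 0 h and not at 12 h, however, so an equal number does not mark the same animal there.

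The members and gene lists were chosen with earlier results of these data known. Named are all members, pathway genes called for lung against ear, and the 3 genes most like each of the 2 members with the largest change at 0 h. Promoters are from RefSeq on GRCm38.p6, and exon positions from GENCODE. Some results are not reported here.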

Additional observations from a re-analysis of the deposited data

How the results depend on the processing

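All calls of members for lung against ear kept their direction in the alternatives run. Of the 40 member values over the 5 contrasts, 13 changed sign in at least 1 setting, all of them values that passed neither in the main fit nor in that setting. Fgf2 at 0 h for lung against ear was -0.63 and for ear between the times -0.22 without both libraries with Y-linked transcripts, under which Fgf10 between the times in lung was 0.45 and Fgfr2 0.00. Over complete coding sequences alone, Fgfr3 in lung between the times was -0.11, Fgfrl1 0.17, and the interaction of Fgfrl1 0.33. Leaving out 1 library at a time, the ranges for lung against ear were -0.32 to 0.77 for Fgf2 and -0.30 to 0.19 for Fgfr1 at 0 h, and -0.20 to 0.01 for Fgfr3 at 12 h. Between the times in ear they were -0.22 to 0.87 for Fgf2, -0.29 to 0.22 for Fgf18 and -0.39 to 0.33 for Fgfrl1. Between the times in lung they were -1.12 to 0.45 for Fgf10, -0.17 to 0.06 for Fgfr2, 0.22 to 0.46 for Fgfr3 and -0.67 to 0.19 for Fgfrl1, and for the interaction -0.32 to 0.76 for Fgf2, -0.03 to 0.46 for Fgfr2 and -0.63 to 0.22 for Fgfrl1. The causes were not tested.

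Members called at 0 h, 4 as reported, were 2 with no filter, 1 without both libraries with Y-linked transcripts, and 1 to 4 with 1 library left out, and at 12 h 2 to 4 against 3. Of the pathway genes, 9 as reported at each time, upper-quartile scaling called 14 at each time, 0 h without both Y-linked libraries called 4, and omission of 1 library 3 to 11 at 0 h and 6 to 9 at 12 h. Of all genes, the calls for lung against ear were 1488 at 0 h and 2267 at 12 h, 555 at 0 h without both Y-linked libraries, and 547 to 1752 and 1356 to 2468 with 1 library left out. For 12 h against 0 h in lung, where 1 gene was called, 7 were called with no filter and 0 with a pseudocount of 0.1, with a filter of 5 TPM, with only the groups compared, with either block and without both Y-linked libraries, and 0 to 121 with 1 library left out, 121 without library 1 of lung at 12 h. For the interaction, where 0 were called, 2 were called with no filter, 1 with upper-quartile scaling and 0 to 21 with 1 library left out, 21 without library 1 of lung at 12 h.

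With the replicate number as a block, 745 genes were called at 0 h and 1164 at 12 h for lung against ear, and 3 and 5 of the pathway genes. Of the members, the block ended the call of Fgf7 at 0 h (-1.12) and changed no other member call. Lung and ear libraries of equal number had correlations from -0.1936 to 0.2604 with only 2 pairs at each time, so their numbers were not taken as pairs. Lung libraries of equal number correlated at -0.4431 between the times, and with their numbers crossed 0 members, 0 pathway genes and 0 genes were called in lung. A lone library left in a group was assumed to vary like the other groups. Depth is unknown, so no counting error could be set beside low values such as those of Fgf9, Fgf18, Fgfr3 and Fgfr4.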

Other observations

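Of the 3 other secreted ligands tested, Fgf23, a hormone made by bone, varied most between libraries, which was seen after its values were known. Fgf23 was at 0.106 and 0 TPM in lung cells at 12 h, 0.073 and 0.0494 TPM in lung cells at 0 h, 86.2, 0.283 and 3.07 TPM in ear cells at 12 h, and 1.45, 0.255 and 0.521 TPM in ear cells at 0 h. A single ear library at 12 h thus held most of the Fgf23 in the series, and the log2 fold change of lung over ear at 12 h, -2.87, did not pass the test. It passed without library 2 of ear at 12 h (-4.16, limma adjusted p = 0.0424). Fgf5, an inhibitor of hair growth in mice, was at 5.87 and 7.58 TPM in lung cells at 12 h, 1.99 and 12.8 TPM in lung cells at 0 h, 5.75, 6.81 and 2.06 TPM in ear cells at 12 h, and 0.276, 6.33 and 0.899 TPM in ear cells at 0 h. Within a group Fgf5 thus varied as widely as between groups. Fgf1, which binds all FGF receptors, was at 2.15 to 3.1 TPM in lung cells at 12 h, 2.84 to 3.46 TPM in lung cells at 0 h, 0.052 to 1.54 TPM in ear cells at 12 h and 1.31 to 4.27 TPM in ear cells at 0 h.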
